A study of Mus musculus with 2 samples.

Results

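B cell identity and signalling genes were examined in whole mouse omentum. The set held 33 genes of the B lineage, chosen by symbol, out of 24346 gene symbols measured. Of these, 2 stand for recirculating B2 cells (Fcer2a and Cr2), 3 for B1 cells (Zbtb32, Bhlhe41 and Spn), and 28 are shared by B cells at large.

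RNA-seq had been performed on the omentum, an abdominal fat tissue with lymphoid clusters called milky spots. The WT group and the Postn-DTR group had both received diphtheria toxin (DT), and both were taken 5 days later. Postn-DTR mice are heterozygotes in which the DT receptor was placed in the first coding exon of Postn, so that cells using the Postn promoter are killed by DT. That promoter is also used by mesenchymal cells outside the omentum, which limits the model. There was 1 library per genotype, so no test between genotypes was possible and no difference below has a replicate check. The labels give omentum as the source, and the study's Results describe RNA-seq of omenta 5 days after DT. Its RNA-seq methods describe sorted omental cells for the experiments that name them. The adipocyte gene Adipoq was at an FPKM of 955.2 and 635.9 (WT first). The libraries are described here as whole tissue, following the labels and the study's Results. Whether a library held RNA of a single mouse or of a pool, and the age and sex of the mice, were not given in the sources used here.

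B cells read antigen through surface immunoglobulin, which signals through its partner chains CD79A and CD79B to kinases such as SYK and BTK. B2 cells are the follicular cells that circulate between blood and lymphoid tissue and carry CD23 and CD21. B1 cells live in the body cavities and in milky spots, where they renew themselves and make natural antibody. Because whole tissue was measured, fewer cells of a type and less RNA per cell cannot be told apart.

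Values are FPKM, a count of fragments divided by transcript length and by sequencing depth, so that levels of different genes can be set side by side. A change is log2(FPKM + 1) in Postn-DTR less that in WT, and 2-fold on that scale was the line for counting a gene as lower or higher. Folds and percentages are ratios of FPKM without the added 1. The targeted gene Postn was at an FPKM of 58.3 in the WT library and 16.2 in the Postn-DTR library, a change of -1.79. The FPKM of all genes summed to 542190 in WT against 671882 in Postn-DTR. The spacing of low values placed the libraries at about 23300000 and 24100000 fragments, so that an FPKM of 1 in a 2 kb transcript stood for about 41.9 and 43.4 reads. Intervals given with a percentage are 95% exact binomial intervals from such estimated reads. They cover counting error only, and treat reads as independent. Reads without molecular identifiers are not independent molecules, so the intervals may be too narrow even for that. They say nothing of variation between mice or of the scaling between libraries.

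Most B cell genes had a lower FPKM in the Postn-DTR omentum, and the B2 genes stood lowest. All 33 genes passed the minimum of a mean FPKM of 1. At least 2-fold lower were 8 of them (Fcer2a, Cr2, Fcrl1, Ms4a1, Tlr9, Cd72, Spib and Bank1), which is 24.2%, beside 3.12% of the 13127 genes compared. At least 2-fold higher were 0 of the 33, beside 3.88% of all genes. These shares of all genes are the background for the group and list counts below. Pancreatic acinar genes summed to an FPKM of 12587.5 in WT against 20.4 in Postn-DTR, or 2.32% and 0.00304% of the library totals. The WT library thus held acinar transcripts that the Postn-DTR library nearly lacked. The source of this difference was not tested, and it limits every comparison of the 2 libraries. With these genes removed and both libraries brought to the same total, 10 members were lower. The shares of all genes became 5.65% lower and 2.27% higher. Most of this rescaling came from equalising the library totals (542190 in WT and 671882 in Postn-DTR) rather than from removing the acinar genes. In direction alone, 29 members had a change under 0, as had 48.1% of all genes, and the median change was -0.54 for the members and 0.02 for all genes.

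The members were nevertheless spread widely. Their summed FPKM was 1222 in WT against 990.8 in Postn-DTR, or 81.1% of the WT value. The order of levels was largely retained, with a Pearson correlation of log2 FPKM between the libraries of 0.907 over the 33 genes, which share the same pair of libraries. In WT 4 members had an FPKM of at least 100 and 7 were under 10. In Postn-DTR 3 were at 100 or more and 14 were under 10. With FPKM as deposited, the counting interval lay below 100% of WT for 26 members and above it for 4. It held 100% for Vpreb3, Bhlhe41 and Btk. These counts depend on the scaling, which the intervals leave out. At equal totals without acinar genes the change of Btk went from -0.06 to -0.39. That of Bhlhe41 went from -0.14 to -0.39 and that of Vpreb3 from -0.36 to -0.65. Cd37 and Blnk, whose intervals lay above 100%, went below 0.

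**Figure D1:**
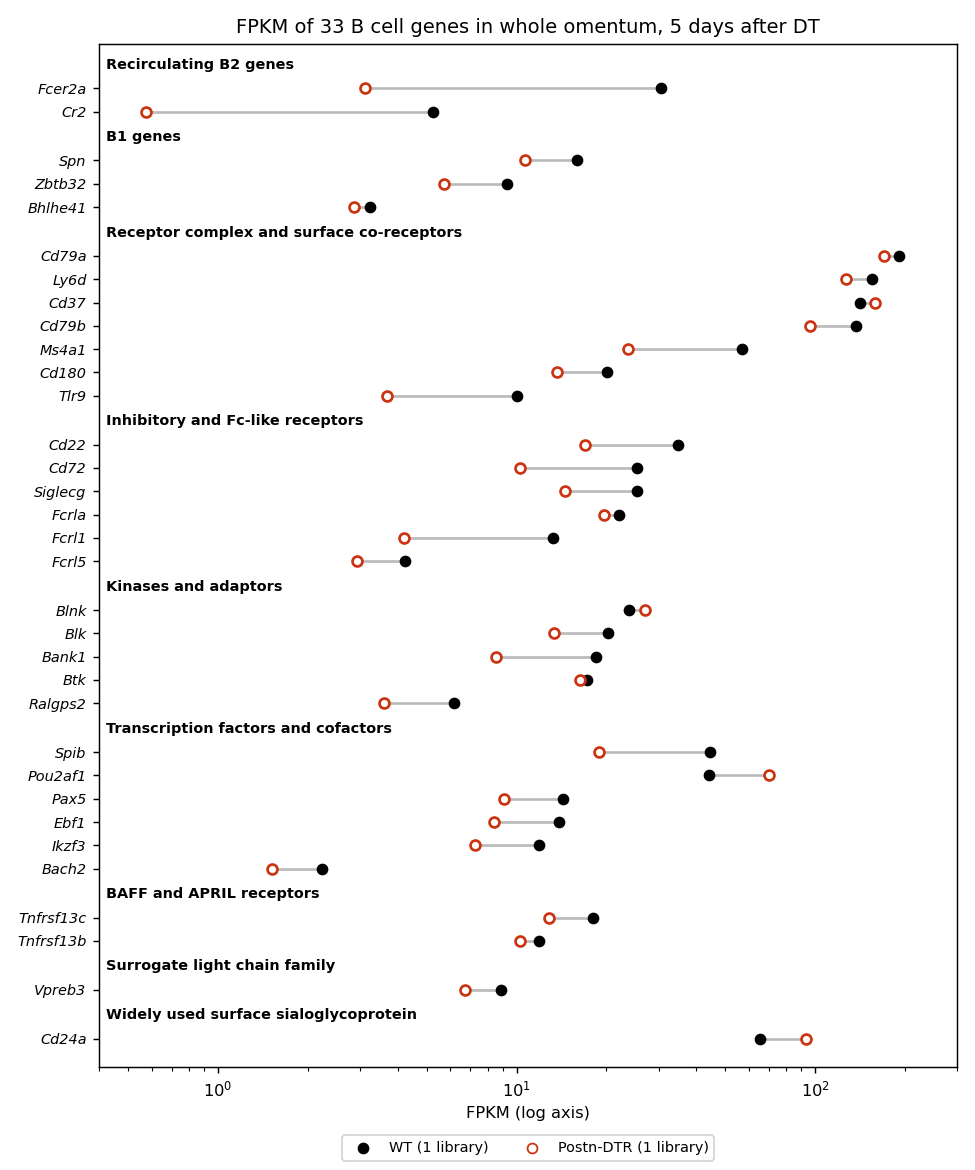
FPKM of the 33 B cell genes in the WT library (filled black) and the Postn-DTR library (open red), on a log axis, grouped by role. Each point is 1 library without error bars. Fcer2a and Cr2 show the widest gaps, while Cd79a, Cd37 and Btk nearly coincide, and Pou2af1 and Cd24a lie to the right in Postn-DTR.

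The B2 genes differed by about the same factor. Fcer2a (chr8:3681737-3694175, minus strand, GRCm38) encodes CD23, the low-affinity IgE receptor, which mature follicular B cells display. Its FPKM was 30.5 in WT against 3.10 in Postn-DTR, which was 9.86-fold lower, a change of -2.94. The Postn-DTR value was 10.1% of WT (8.50 to 12.0), from about 1453 and 152 reads. Fcer2a was thereby the 10th most abundant member in WT and the 29th in Postn-DTR. Cr2 (chr1:195136811-195176716, minus strand) encodes the complement receptors CD21 and CD35, which lower the threshold of B cell activation. Its FPKM was 5.25 in WT against 0.573 in Postn-DTR, which was 9.15-fold lower, a change of -1.99. The Postn-DTR value was 10.9% of WT (8.59 to 13.7), from about 735 and 83 reads, so the intervals of the 2 genes overlapped. With a pseudocount of 5 the change of Cr2 was -0.88, under the 2-fold line, as its FPKM was low. Of all genes compared, 0.404% had a lower change than Fcer2a and 0.686% a lower change than Cr2.

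Follicular dendritic cells, stromal cells of B cell follicles, also use both genes. The study describes milky spots as lacking a well-defined network of these cells. Of the markers listed for them, Cxcl13 was at 1038 and 940.4, Clu at 285.4 and 365.3, and Mfge8 at 176.7 and 113.2 (WT first). None of the 3 reached 2-fold, and whole tissue does not show which cells made them. The part of follicular dendritic cells in the B2 values was not tested.

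The 250 bases before the start of each B2 gene are shown because these genes stood apart from the rest. They come from the RefSeq table on GRCm38.p6, minus strand, chr8:3694175-3694424 for Fcer2a and chr1:195176720-195176969 for Cr2. Of 3 listed starts of Fcer2a the most upstream is given.
Fcer2a: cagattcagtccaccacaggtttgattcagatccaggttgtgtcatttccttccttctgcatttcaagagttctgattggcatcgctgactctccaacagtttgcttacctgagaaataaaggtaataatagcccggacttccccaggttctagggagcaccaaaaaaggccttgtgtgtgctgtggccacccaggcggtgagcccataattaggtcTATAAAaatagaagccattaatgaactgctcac
Cr2: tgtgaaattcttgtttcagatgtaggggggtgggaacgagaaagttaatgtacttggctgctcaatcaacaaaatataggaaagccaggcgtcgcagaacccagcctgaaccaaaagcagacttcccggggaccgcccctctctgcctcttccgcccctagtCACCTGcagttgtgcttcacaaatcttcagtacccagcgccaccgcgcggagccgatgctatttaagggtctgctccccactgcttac
Capitals mark TATAAA in Fcer2a, beginning 33 bases before the start, and CACCTG in Cr2, beginning 88 bases before it. The letters TATAAA are those of the TATA box, and CACCTG is an E-box, the kind of site that E proteins such as TCF3 bind. On either strand, TATAAA was in 13.6% and CACCTG in 20.2% of the 32851 promoter windows in the table. Each window reaches from 250 bases before a start to 50 after it. A window was listed for 27 of the 33 members. Of their 34 windows 5 held TATAAA, from 5 members, and 13 held CACCTG, from 12 members. Fcer2a was also among the members with CACCTG, through another of its 3 listed starts. The sequences differ in base composition, with 46% G and C in Fcer2a and 53.6% in Cr2.

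The B1 genes differed by less and lay within the range of the shared genes. Zbtb32, which encodes a zinc finger repressor, had an FPKM of 9.27 in WT against 5.70 in Postn-DTR, or 61.4% (51.5 to 73.1), a change of -0.62. Spn, which encodes the surface sialoglycoprotein CD43 used to define B1 cells, was at 16.0 and 10.6, or 66.7% (61.1 to 72.5), a change of -0.54. Bhlhe41, a helix-loop-helix repressor needed by B1a cells, was at 3.24 and 2.85, or 88.0% (76.6 to 101), a change of -0.14. None of the 3 reached 2-fold, and their median change was -0.54, beside -0.51 for the 28 shared genes. All 3 are also used by other cells, Spn by T cells and myeloid cells, Zbtb32 by activated T and NK cells, and Bhlhe41 by macrophages.

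To set the subsets against the shared genes, each log2 ratio of FPKM was read relative to the median of the 28 shared genes, which was -0.55. A scaling of either library does not move this difference. The difference from that median was -2.75 for Fcer2a and -2.64 for Cr2, or 6.72-fold and 6.23-fold lower than it. None of the 28 shared genes, whose log2 ratios reached from -1.66 (Fcrl1) to 0.67 (Pou2af1), had a lower ratio than either. The differences from the shared median were -0.15 for Zbtb32, -0.032 for Spn and 0.37 for Bhlhe41. Of the shared genes 11, 13 and 21 had a lower ratio than Zbtb32, Spn and Bhlhe41, so that each stood among them. These are descriptions of 2 libraries. Whether the subsets differ between genotypes could not be tested with 1 library each.

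Ratios between members within a library show the same shift. For each unit of Fcer2a, Zbtb32 stood at 0.304 in WT against 1.84 in Postn-DTR. Cd79a stood at 6.25 times Fcer2a in WT and 54.8 times in Postn-DTR. Against Ms4a1, Fcer2a was at 0.538 and 0.131, and Cr2 at 0.0924 and 0.0243. Both B2 genes thus stood lower even relative to Ms4a1, itself among the members that reached 2-fold.

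**Figure D2:**
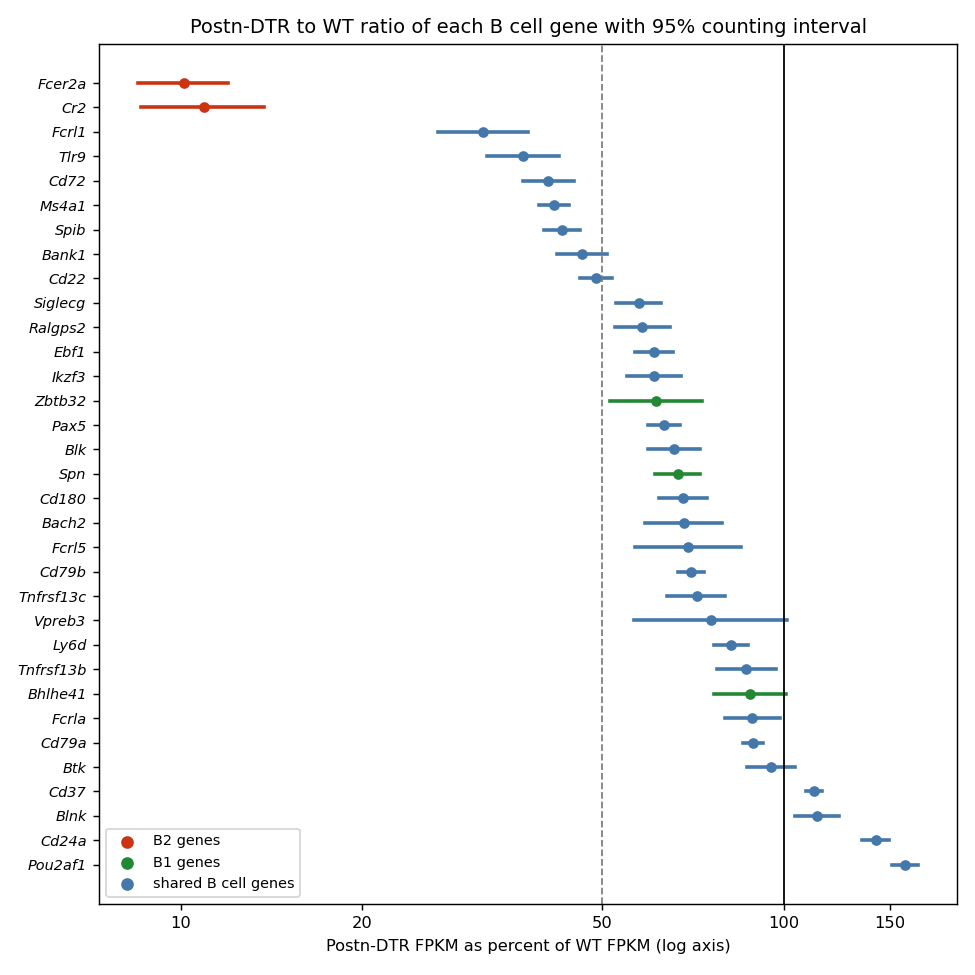
Postn-DTR FPKM as a percentage of WT FPKM for each of the 33 genes, on a log axis, with B2 genes in red, B1 genes in green and shared genes in blue. Bars are 95% counting intervals from estimated reads, the solid line is 100% and the dashed line 50%. Fcer2a (10.1%) and Cr2 (10.9%) lie apart from the remaining members, which run from 31.7% for Fcrl1 to 159% for Pou2af1.

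Among the shared genes, the signalling chains of the antigen receptor were both within 2-fold, Cd79a closer to WT than Cd79b. Cd79a, the first signalling chain, was the most abundant member in both libraries, with an FPKM of 190.9 in WT against 169.6 in Postn-DTR, or 88.9% (85.5 to 92.3). Cd79b, the second chain, was at 136.7 and 96.0, or 70.2% (66.9 to 73.7). The ratio of Cd79a to Cd79b was 1.40 in WT against 1.77 in Postn-DTR. Neither reached 2-fold. Ms4a1, which encodes CD20, a membrane-spanning protein of the B cell surface, was different. It was at 56.8 in WT against 23.6 in Postn-DTR, or 41.6% (39.2 to 44.0), a change of -1.23, so that the ratio of Ms4a1 to Cd79a was 0.298 in WT against 0.139 in Postn-DTR.

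Other surface proteins of B cells varied as much. Ly6d, a lipid-anchored protein that appears on lymphoid progenitors bound for the B lineage, was at 155.7 in WT against 127.3 in Postn-DTR, or 81.8% (76.6 to 87.3). Cd180, a receptor of the Toll-like family without a signalling domain of its own, was at 20.1 and 13.7, or 68.1% (62.1 to 74.6). Tlr9, the endosomal receptor for unmethylated DNA, was at 10.0026 and 3.69, or 36.9% (32.2 to 42.3), a change of -1.23. Cd37, a tetraspanin of leukocytes in general, was at 141.4 and 158.4, or 112% (109 to 115). Its change of 0.16 became -0.18 at equal totals without acinar genes. Within this group of receptors, Ms4a1 and Tlr9 passed the 2-fold line.

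Inhibitory and Fc-like receptors restrain signalling by the antigen receptor or resemble receptors for antibody. Of these 6 genes 2 (Fcrl1 and Cd72) were at least 2-fold lower, beside 3.12% of all genes. All 6 had a change under 0, as had 48.1% of all genes. Their median change was -0.88, with a summed FPKM of 124.9 in WT against 68.5 in Postn-DTR. Cd72, a lectin-like receptor with an inhibitory tail, was at 25.3 and 10.3, or 40.7% (36.9 to 44.8), a change of -1.22. Cd22, which binds sialic acid and dampens calcium signals, was at 34.8 and 17.0. Its FPKM was 2.05-fold lower, yet its change of -0.99 stopped just short of the 2-fold line on the log2(FPKM + 1) scale, and it passed that line under 4 other settings, listed with the processing choices. Siglecg, a related sialic acid receptor that is strongly used in B1 cells, was at 25.3 and 14.5, or 57.5% (52.6 to 62.6).

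The Fc receptor-like genes parted from each other. Fcrl1, a surface receptor of mature B cells on chromosome 3, was at 13.2 and 4.20, or 31.7% (26.7 to 37.6), a change of -1.45, and was the lowest shared gene. Fcrl5, which lies 32.8 kb from Fcrl1 on the same strand (GRCm38), was at 4.22 and 2.92, or 69.3% (56.7 to 84.9). Fcrla, which encodes a relative that stays inside the cell, was at 22.1 and 19.6, or 88.6% (79.9 to 98.4). The ratio of Fcrl1 to Fcrla was 0.598 in WT against 0.214 in Postn-DTR.

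Kinases and adaptors that carry the signal inward mostly stayed within 2-fold. Blk, a Src family kinase, was at 20.2 in WT against 13.3 in Postn-DTR, or 65.8% (59.6 to 72.6). Btk, the kinase that activates phospholipase C gamma 2, was at 17.2 and 16.4, or 95.3% (87.0 to 105). Blnk, the adaptor that brings BTK to its substrate, was at 23.8 and 27.0, and its change of 0.18 became -0.15 at equal totals. Bank1, a scaffold of B cell signalling, was the only one of the 5 in this group past 2-fold, at 18.5 and 8.56, or 46.3% (42.04 to 50.9). Ralgps2, an exchange factor for Ral GTPases, was at 6.17 and 3.60, or 58.2% (52.4 to 64.6).

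Btk and Blnk are also used by myeloid cells. All 10 macrophage markers listed had a change above 0 in Postn-DTR, 4 of them at least 2-fold, beside 3.88% of all genes. Their median change was 0.79, and their summed FPKM was 2953 in WT against 4772 in Postn-DTR. The 5 neutrophil markers compared were likewise all above 0, 3 of them past 2-fold, and summed to 346.4 and 680.5. Tlr9, Cd180, Siglecg, Spib and Bank1 have users among dendritic cells. Of 7 dendritic cell markers 5 were at least 2-fold lower (Itgax, Flt3, Xcr1, Clec9a and Cd209a), beside 3.12% of all genes. The list summed to 50.4 in WT against 19.7 in Postn-DTR. The part of these cells in the values of the genes they share was not tested. The 10 shared genes with no other user cell listed were Cd79a, Cd79b, Ms4a1, Cd22, Fcrla, Fcrl1, Fcrl5, Pax5, Tnfrsf13c and Vpreb3. All 10 had a change under 0, as had 48.1% of all genes. Their median was -0.48, beside -0.55 for the 18 that other cells share. By summed FPKM the order was the other way, at 72.3% of WT for the 10 and 92.2% for the 18. Of the 18, 4 had a change above 0.

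Of the 6 transcription factors and cofactors of B cell identity, 1 (Spib) was at least 2-fold lower, beside 3.12% of all genes. The other 5 were within 2-fold, Pou2af1 with a change above 0. Pax5, which commits cells to the B lineage, was at 14.3 and 9.07, or 63.3% (59.5 to 67.3). Ebf1, which acts with PAX5, was at 13.8 and 8.44, or 61.0% (56.6 to 65.6), and the ratio of Pax5 to Ebf1 stayed close, at 1.04 in WT against 1.08 in Postn-DTR. Ebf1 is also used by adipocytes and fibroblasts, of whose 8 markers 3 (Pparg, Dpt and Pdgfrb) were at least 2-fold lower, with a median change of -0.67, and whose part in its value was not tested. Ikzf3, which encodes Aiolos, was at 11.9 and 7.26, or 61.0% (55.0 to 67.6). Bach2, which holds back plasma cell differentiation, had the lowest WT level of all members, at 2.23, and 1.52 in Postn-DTR, or 68.2% (58.9 to 78.9).

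Spib and Pou2af1 differed in opposite directions. Spib, an ETS factor close to PU.1, was at 44.3 in WT against 19.0 in Postn-DTR, or 42.8% (39.9 to 45.9), a change of -1.18. Pou2af1, the B cell coactivator OBF-1 that joins octamer-binding factors on DNA, was at 44.2 in WT against 70.2 in Postn-DTR, or 159% (151 to 167), a change of 0.66. It was the highest change among the members, and the ratio of Pou2af1 to Spib was 0.998 in WT against 3.70 in Postn-DTR. Pou2af1 did not reach 2-fold. It stayed above 0 under each rescaling or centring, the only alternatives that can change a sign, with 0.32 at equal totals.

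Pou2af1 is used by antibody-secreting cells as well as B cells. Of 8 plasma cell genes 7 had a change above 0, with a median of 0.79, and only Mzb1, a chaperone of antibody assembly, passed 2-fold, at 97.8 and 243.7. At equal totals without acinar genes 0 of the 8 passed. Jchain, which links secreted antibody units, was at 497.5 and 825.3, and Xbp1, a factor of the secretory programme, at 166.5 and 330.02. Irf4, a factor needed for plasma cells and also used by T and myeloid cells, was at 13.3 and 41.0. It belongs to a separate list, given below, and not to these 8 genes. The part of antibody-secreting cells in the Pou2af1 value was not tested.

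Sites for these factors were looked up in the promoter windows of the 27 members listed, on both strands. The octamer ATGCAAAT, bound by OCT factors with OBF-1, was in 3 of the 34 member windows (Tlr9, Vpreb3 and Blnk) and in 1.74% of all windows. These sites are shown with their surroundings because the 3 genes differed in change while sharing the letters, with the octamer in capitals. They lie at chr9:106222500-106222559 on the plus strand for Tlr9, chr10:75948229-75948288 on the plus strand for Vpreb3 and chr19:40994318-40994377 on the minus strand for Blnk (GRCm38.p6, RefSeq).
Tlr9: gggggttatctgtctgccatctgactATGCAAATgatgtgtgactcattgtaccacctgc
Vpreb3: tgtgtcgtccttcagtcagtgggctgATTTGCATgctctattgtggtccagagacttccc
Blnk: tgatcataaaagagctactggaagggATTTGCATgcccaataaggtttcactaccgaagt
The octamer began 72 bases before the start in Tlr9, 45 in Vpreb3 and 130 in Blnk, and was in reverse orientation in the last 2. Tlr9 was among the 8 lower members, whereas Vpreb3 was within 2-fold and Blnk was the higher of the 3.

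The PU.1 site GAGGAAGT was in 4 of the 34 member windows (Fcrl1, Cd72, Cd37 and Tlr9) and in 3.20% of all windows. Those before the start are shown, with the site in capitals, for Fcrl1 at chr3:87376346-87376405 on the plus strand, Cd72 at chr4:43454642-43454701 and Cd37 at chr7:45238831-45238890 on the minus strand.
Fcrl1: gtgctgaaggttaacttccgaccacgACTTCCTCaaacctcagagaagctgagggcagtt
Cd72: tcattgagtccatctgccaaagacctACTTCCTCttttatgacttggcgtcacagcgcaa
Cd37: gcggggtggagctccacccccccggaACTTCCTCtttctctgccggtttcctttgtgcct
Fcrl1 and Cd72 were at least 2-fold lower, as was Tlr9, and Cd37 was not. The EBF site (TCCC, any 2 bases, GGGA) was in 1 of the 34 member windows, that of Cd22, and in 0.904% of all windows. It lies at chr7:30879042-30879103 on the minus strand, beginning 49 bases before the start.
Cd22: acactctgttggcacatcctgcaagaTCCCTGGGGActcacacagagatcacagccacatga
Neither Fcer2a nor Cr2 held the octamer, the PU.1 or the EBF letters in the windows shown above. A match of letters is not a measure of binding.

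Receptors for the survival factors BAFF and APRIL were both within 2-fold. Tnfrsf13c, the BAFF receptor, was at 17.98 in WT against 12.9 in Postn-DTR, or 71.6% (64.0 to 80.0). Tnfrsf13b, which encodes TACI, a receptor for both factors, was at 11.9 and 10.3, or 86.5% (77.3 to 97.0). The ligand genes were Tnfsf13b (BAFF), at 5.97 and 6.30, and Tnfsf13 (APRIL), at 22.5 and 36.8, neither past 2-fold. Vpreb3, a relative of the surrogate light chain, was at 8.90 and 6.74, or 75.7% (56.3 to 101), from only about 110 and 86 reads.

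Cd24a, a small sialoglycoprotein of immature B cells that epithelial, erythroid and myeloid cells also carry, was at 65.5 in WT against 93.0 in Postn-DTR, or 142% (135 to 149). Its change of 0.50 stayed above 0 under each rescaling or centring, with 0.16 at equal totals. Of the erythroid markers, Klf1 was at 0.129 and 0.218 and Alas2 at 4.88 and 13.8. The neutrophil and macrophage lists that were higher are given above. Their part in the Cd24a value was not tested.

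Partners of the antigen receptor outside the 33 genes were compared to place the members in their pathway. Of 25 listed, 0 were at least 2-fold lower and 0 at least 2-fold higher, their median change was -0.21, and 14 had a change under 0. At equal totals without acinar genes 4 of them were at least 2-fold lower and 0 higher, beside 5.65% and 2.27% of all genes. Rasgrp3, an exchange factor for Ras, had a change of -0.85 (11.5 and 5.92). Widely used members stayed close, with Lyn at 44.1 and 48.3 and Syk at 46.5 and 48.6. Fcgr2b and Dok3, inhibitory partners that myeloid cells also use, had the highest changes, both at 0.98.

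Factors that work beside the members in B cells were also compared. Of 12 listed, 0 were at least 2-fold lower and 1 (Irf4) at least 2-fold higher. Ets1 was lowest with -0.97 (35.4 and 17.6), just short of the 2-fold line, which it passed with a pseudocount of 0.1, at a common 75th percentile and at equal totals. Spi1, which encodes PU.1, stood at 60.5 and 121.9. Its change of 0.999 was also just short of the 2-fold line, which it passed with a pseudocount of 0.1. Of 8 genes of B cell precursors only 3 passed the expression minimum, none past 2-fold, and Rag1 was at 0.0531 and 0.148, Rag2 listed at 0 in WT and at 0.0780 in the other library, and Dntt at 0.184 and 0.0888. Of the 4 germinal centre genes compared only Gcsam, at 2.30 and 0.603, passed 2-fold.

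Genes of recirculation that B2 cells share with T cells did not share a direction. Cxcr5, the receptor for CXCL13, was at 17.4 and 8.17, and Ccr7 at 8.45 and 3.18, both at least 2-fold lower. Klf2, a factor of quiescence that endothelium also uses, was at 96.2 and 246.8. Of the further B1 genes, Cd5 was at 7.65 and 2.42 and Itgam at 46.8 and 251.9, but T cells carry the former and macrophages the latter. Of 12 T cell markers compared 6 were at least 2-fold lower, beside 3.12% of all genes. The count was 10 at equal totals without acinar genes, beside 5.65%, and 0 with a pseudocount of 5, beside 1.28%. The list summed to 122.3 in WT against 56.4 in Postn-DTR. Bach2, Ikzf3, Spn, Zbtb32 and Pou2af1 are used by T cells, whose part in those values was not tested.

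**Figure D3:**
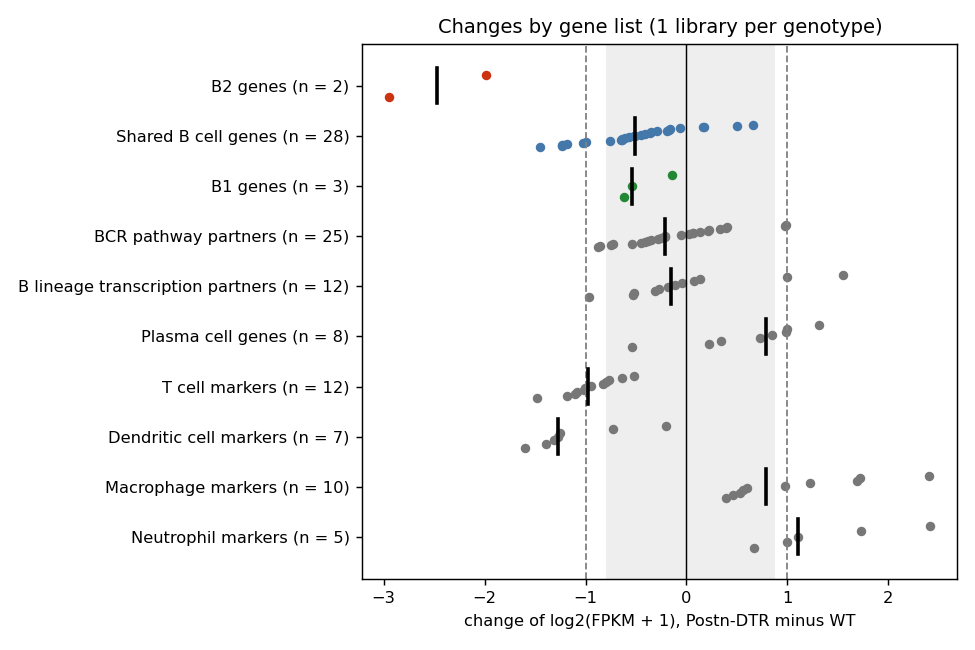
Difference of log2(FPKM + 1) between Postn-DTR and WT for each gene compared in the B2, shared and B1 members and in 7 other lists. Each point is 1 gene, black bars are list medians, dashed lines mark 2-fold, and the grey band runs from the 5th to the 95th percentile of all 13127 genes (-0.79 to 0.87). Both B2 genes lie left of the shared B cell genes, while the plasma cell, macrophage and neutrophil medians lie to the right of 0.

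On the genome the members were spread over 14 chromosomes, with 7 of them on chromosome 7 (Cd79a, Zbtb32, Cd22, Siglecg, Spib, Cd37 and Spn). Within that group Spib was at least 2-fold lower and Cd37 had a change above 0. Annotated genes on the other strand that the files also list overlap 7 members (Bach2, Cd180, Cd37, Cd72, Ms4a1, Pax5 and Ralgps2). The labels name a strand-keeping library kit and the study's methods a different one, and whether counting used strand was not given in the sources used here, so their values may include reads of the overlapping genes.

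**Figure D4:**
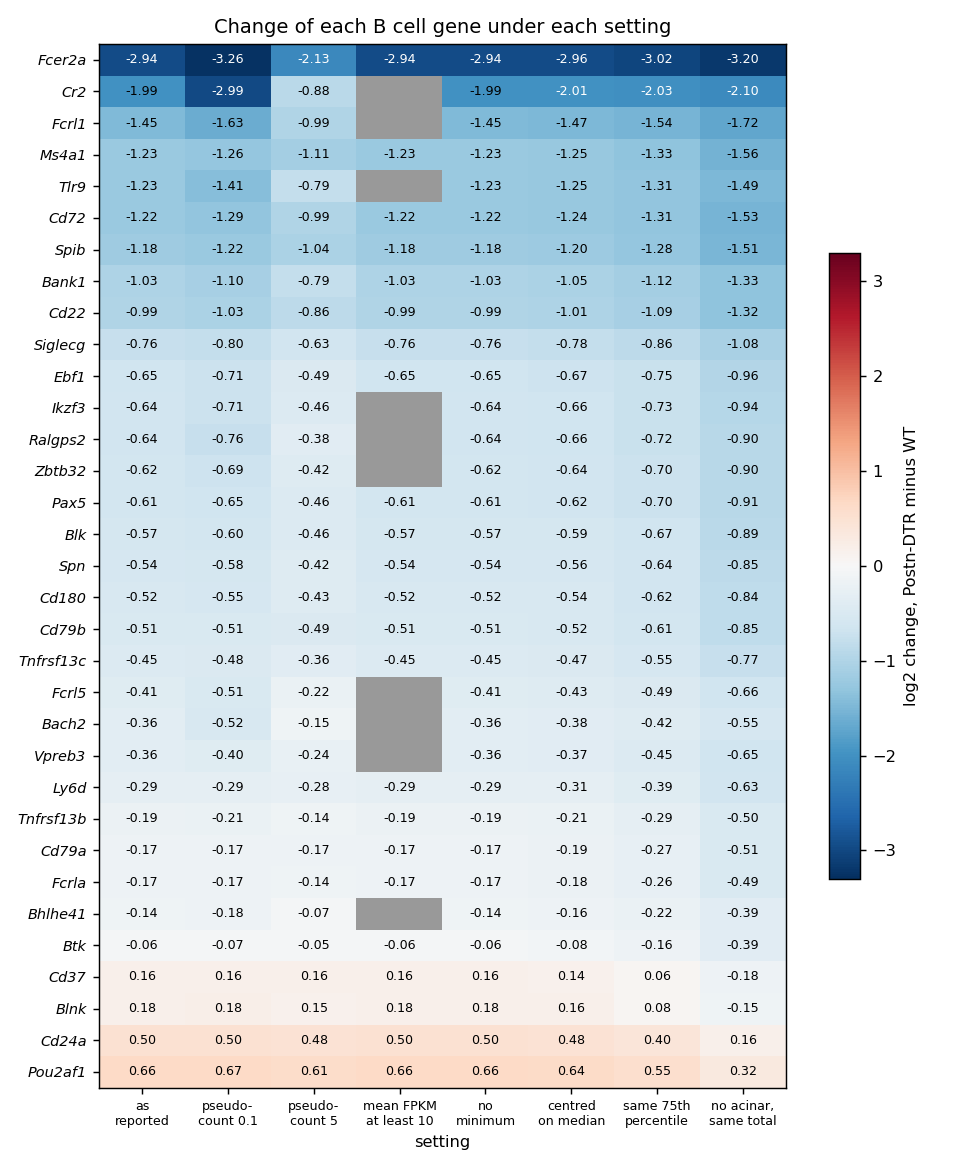
Change of each of the 33 genes, Postn-DTR minus WT, as reported and under 7 alternative settings, in log2 units and coloured blue for lower and red for higher. Grey cells are genes under the expression minimum. Fcer2a is lowest in every column, and Cd37 and Blnk turn from above to below 0 in the last column.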

How the data were processed

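Whole-omentum RNA-seq of 1 WT and 1 Postn-DTR library was used. Groups came from the genotype labels. The authors deposited FPKM with 1 value per gene symbol. The submitters' processing notes name TopHat2 2.1.1, Bowtie2 2.2.8, SAMtools 0.1.18, Cuffdiff 2.2.1 and the build mm10. The labels and the study's Results give omentum as the source. The labels name a stranded TruSeq kit and the study's methods a NEBNext kit. Which kit was used for these libraries could not be settled. Settings, the annotation and the sequencing depth were not given in the sources used here.

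FPKM were compared as log2(FPKM + 1) for genes with a mean of at least 1. With 1 library per genotype no test was run. The members and lists were chosen with earlier results of these data known. All members are named, and so are genes of 15 other lists that passed 2-fold or were the most abundant. Genes named outside this rule (Rasgrp3, Lyn, Syk, Dok3, Ets1, Rag1, Rag2, Dntt and Klf1) were chosen after their values were seen. Positions and lengths came from GENCODE M21 (GRCm38), which holds 95.7% of the symbols.

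Depth was estimated from low values of genes with 1 transcript. With 200 bases taken off each length, 77.2% (WT) and 77.4% (Postn-DTR) of such values lay within 0.1 of whole reads. Reads of genes with several transcripts used the longest coding one and are approximate. Immunoglobulin constant-region genes, Ly6g and Fdcsp were not analysed here, and some genes of the lists are not reported here. Scripts ran on Python 3.11.15 with numpy, pandas and scipy 1.17.1, and calls were tested on simulated data.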

Additional observations from a re-analysis of the deposited data

How the results depend on the processing

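Over the 9 alternatives the median change of the members ranged from -0.85 (equal totals without acinar genes) to -0.42 (pseudocount of 5). Pseudocounts, fold thresholds and expression minimums cannot change the sign of a gene's change. Under centring, the common 75th percentile and equal totals, which can, 31 of the 33 members kept their sign. The exceptions were Cd37 and Blnk at equal totals, a setting that moved the median of all genes by -0.30. The 8 lower members became 3 with a pseudocount of 5, 5 with a mean FPKM of at least 10, 15 at 1.5-fold and 2 at 3-fold, beside 1.28%, 2.4%, 8.84% and 1.17% of all genes compared. Under the pseudocount of 0.1, centring, the common 75th percentile and equal totals they numbered 9, 9, 9 and 10, and Cd22 passed 2-fold under each of these 4. The count of higher members went from 0 to 1 at 1.5-fold, beside 9.86% of all genes. Over the other lists, excluding acinar genes, 29 genes past 2-fold became 10 with a pseudocount of 5, 16 with a mean FPKM of at least 10, 56 at 1.5-fold and 7 at 3-fold, and 36 at equal totals. The 6 lower T cell markers became 2 under the minimum of 10, and the 5 lower dendritic cell markers 1 there and 0 with a pseudocount of 5. Stricter filters, higher thresholds and larger pseudocounts lower such counts by construction. Fcer2a stayed past 2-fold throughout, from -3.26 to -2.13, whereas Cr2 was at -0.88 with a pseudocount of 5 and under the minimum of 10, which gave no value. The B2 and B1 positions relative to the shared genes stayed on their side of 2-fold under both alternatives. No paired analysis was possible because each genotype has 1 library. Depth limits Cr2 and Vpreb3 most, at about 83 and 86 reads in Postn-DTR, and the lack of replicates limits every value.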
